A study of Mus musculus with 6 samples.

Results

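The respiratory chain subunits encoded in the nucleus were followed in B16F10 tumors, grown from a mouse melanoma cell line in the hind footpad or in the flank skin, with 3 tumors and 1 RNA library per tumor at each site. They were chosen by gene symbol, with earlier results of these data known. The Nduf, Sdh, Uqcr, Cyc1, Cox4 to Cox8 and Atp5 subunit symbols of the deposited gene table gave 85 of its 45777 genes. All 6 grafts were labelled with Foxn1-/- hosts, which lack T cells, at an age of 8 weeks, and no other agent or allele was named for either site. The methods also used C57BL/6J hosts and name none for the sequenced tumors. They say that tumor cells were isolated from the grafts and name no way of separating them, and markers of host cells were found in every library, as given at the end. In the study's grafts both sites of a mouse were injected together, so that the footpad and flank tumors may share hosts, but the labels tie no tumor to a mouse, and the p-values measure the spread between these tumors.

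Complexes I to IV pass electrons from NADH and succinate to oxygen in the inner mitochondrial membrane and, except for complex II, pump protons, and complex V, the ATP synthase, uses the proton gradient to make ATP. Complex II is encoded wholly in the nucleus, whereas each of the other complexes joins nuclear subunits to subunits encoded in mitochondrial DNA. Cytochrome c oxidase, complex IV, is the one with tissue-specific subunit isoforms, among them forms used in heart and skeletal muscle, lung and testis.

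By complex, the members comprised 36 subunits of complex I, 4 of complex II, 9 of complex III, 19 of complex IV and 17 of complex V. Of the 85, 82 passed the filter on low counts, and the other 3, Cox6b2, Cox7b2 and Cox8c, were testis isoforms of complex IV. Expression is given as CPM, the read count scaled to the TMM-adjusted size of the library, and levels of different genes are compared as FPKM, which is also divided by transcript length. Differences are log2 fold changes of footpad over flank skin tumors by the quasi-likelihood test of edgeR, and a gene was called at an adjusted p under 0.05 (Benjamini-Hochberg over the 17210 genes tested). Depth was 46529649 to 66364366 reads per tumor, and 3 reads, taken as the floor of detection, equalled 0.0438 to 0.0673 CPM. Lists of 3 values are in the order of replicates 1, 2 and 3.

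Promoter sequences are shown for 3 subunit genes, as examples without (Cox7a1) and with (Cox6a1 and Atp5l) letters bound by known regulators of respiratory genes. They come from RefSeq on GRCm38.p6 and end before the first annotated transcript start. Cox7a1, the muscle-type isoform described further on, lies on the plus strand, and its sequence spans chr7:30183921-30184143. Cox6a1, a general subunit of the same complex, is on the minus strand with a sequence from chr5:115348982-115349208. Atp5l, subunit g of ATP synthase, is on the minus strand with a sequence from chr9:44920743-44920992. Capitals mark matches to the motifs named below, on either strand.
Cox7a1: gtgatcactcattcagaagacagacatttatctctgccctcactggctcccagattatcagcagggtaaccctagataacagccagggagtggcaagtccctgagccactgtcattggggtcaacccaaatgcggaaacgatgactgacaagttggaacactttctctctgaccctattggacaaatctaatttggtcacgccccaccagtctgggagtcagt
Cox6a1: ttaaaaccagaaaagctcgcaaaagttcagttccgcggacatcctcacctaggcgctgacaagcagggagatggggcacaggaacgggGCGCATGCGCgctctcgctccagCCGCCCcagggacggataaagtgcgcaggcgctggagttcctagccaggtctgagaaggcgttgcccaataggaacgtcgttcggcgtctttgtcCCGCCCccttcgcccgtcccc
Atp5l: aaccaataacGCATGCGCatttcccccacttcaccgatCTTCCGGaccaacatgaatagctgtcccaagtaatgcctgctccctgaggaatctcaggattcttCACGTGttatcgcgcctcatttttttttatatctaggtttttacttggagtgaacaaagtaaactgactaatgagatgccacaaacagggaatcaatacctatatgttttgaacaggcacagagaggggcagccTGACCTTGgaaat

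The motifs were NRF1 (GCGCATGC), ETS (CCGGAAG, the core bound by GABP), YY1 (AAGATGG), SP1 (GGGCGG), ERR (CAAGGTCA), MEF2 (CTAAAAATA) and the E-box (CACGTG), searched on both strands from 250 bases before to 50 after the start. A promoter sequence was at hand for 69 of the 85 members and for 27025 genes in all. None of the motifs contains another, and neighboring matches may overlap, as the NRF1 matches on both strands of Cox6a1 do. The NRF1 letters stood in 10 member promoters (14.5%, against 2.80% of all promoters). ETS letters stood in 16 (23.2%, against 9.14%), YY1 letters in 10 (14.5%, against 6.46%) and ERR letters in 4 (5.80%, against 1.52%). SP1 letters were common in both sets (29 members, 42.0%, against 35.9%), E-box letters stood in 6 (8.70%, against 7.24%), and MEF2 letters in 0 (against 0.507%). Among the promoters of the 12437 tested genes the shares were 4.78% for NRF1, 16.5% for ETS, 7.02% for YY1, 59.6% for SP1, 0.989% for ERR and 9.76% for the E-box. Members were thus below the tested genes for SP1 and the E-box, and above them for NRF1, ETS, YY1 and ERR. All 10 YY1 matches reached past the start and 0 lay wholly before it. Atp5l held 4 of the 7 motifs, the most of any member. Cox7a1 held 0 of them in the whole window, which says only that these letters are not there. General subunits that were not called also held 0, among them Sdha, Uqcrfs1, Cox7b, Cox5b and Atp5o.

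Most subunit genes had a log2 fold change slightly below 0 in the footpad tumors, and a single one passed the test. Cox7a1 was called lower, which is 1 of 82 members (background 4.87% of all tested genes called in either direction and 1.44% called lower), and 0 members were called higher (3.43%). Cox7a1 also passed a fold of 2 or more, as 3.76% of all genes did. DESeq2 called 2 members lower, Cox7a1 and Ndufb2, against 4.42% of all genes, and 0 higher. The log2 fold change was below 0 for 76 of 82 members (92.7%, against 50.3% of all tested genes), with a median of -0.29 over members and -0.0042 over all genes. Other genes in the members' range of expression were also mostly below 0 where their transcripts were shorter than 1500 bases, with shares of 78.8% to 85.0% over 3 classes of length. An unadjusted p under 0.05 was reached by 8 members, against 25.3% of all genes. The standard error of a member had a median of 0.20, so that most of these differences were of the size of their error. In 3 members, Cox7a1, Ndufb2 and Ndufs5, every footpad tumor was below every flank skin tumor (3.66%, against 14.9% of all genes), and in 0 members was the order the reverse (17.5%). The shares of members called or without overlap were thus not above those of all genes.

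**Figure D1:**
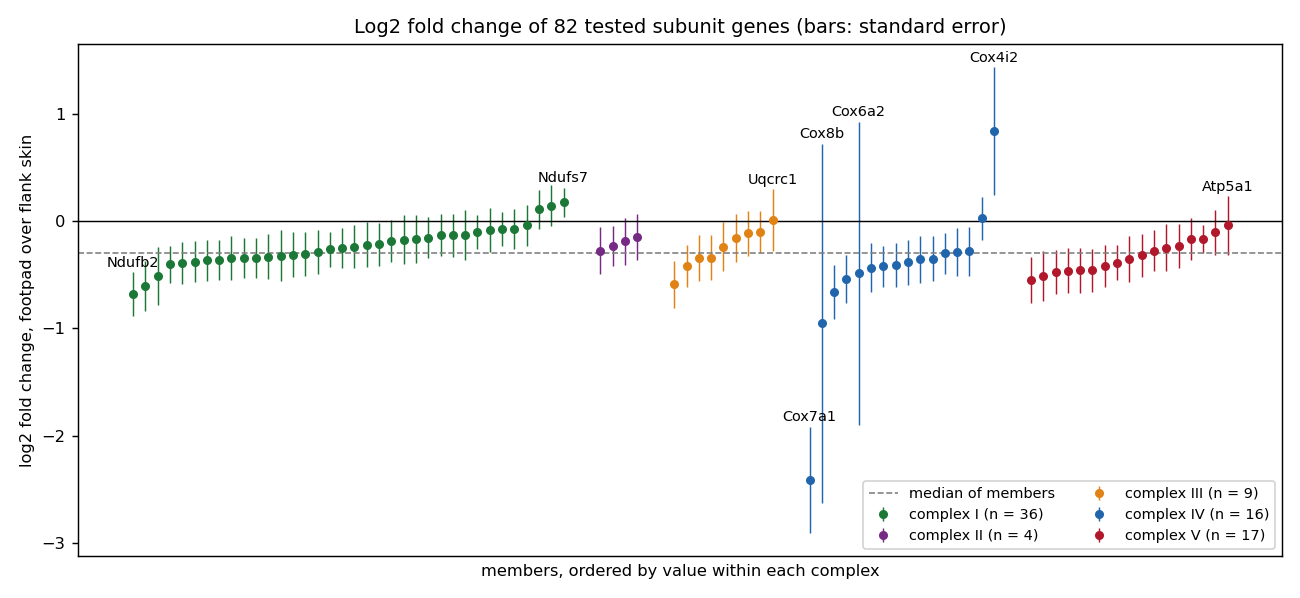
Log2 fold change of footpad over flank skin tumors (y axis) for the 82 tested subunit genes, ordered by value within complexes I to V (colors), with standard errors as bars and the median of members, -0.29, as a dashed line. Cox7a1 (-2.41) stands below the rest, while Cox8b, Cox6a2 and Cox4i2 have the longest bars.

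The shift followed single tumors as much as the site. On a log2 scale relative to the mean of the 6 tumors, the median member stood at -0.39, 0.11 and -0.16 in the footpad tumors and at 0.34, -0.17 and 0.27 in the flank skin tumors. Footpad replicate 2 was thus above flank replicate 2, and the sites overlapped. Footpad replicate 1 had the lowest value of 68 of the 82 members, whereas flank replicate 1 had the highest value of 43, flank replicate 3 of 30 and footpad replicate 2 of 9. Summed over all members, the level was 11940, 17102 and 14219 CPM in footpad tumors (14420 ± 2587, SD, n = 3) and 18007, 13791 and 19714 CPM in flank skin tumors (17171 ± 3049, SD, n = 3). The difference of the site means was smaller than the SD within the flank skin group and slightly larger than that within the footpad group. Without footpad replicate 1, 67 of 82 members stayed below 0 with a median of -0.19, and without flank replicate 3 the values were 68 and -0.22. Without flank replicate 1 the median was -0.18, and without flank replicate 2 it was -0.46. Leaving out 1 tumor at a time, the medians ranged from -0.40 to -0.13 for complex I, from -0.38 to -0.08 for complex II, from -0.42 to -0.11 for complex III, from -0.55 to -0.24 for complex IV and from -0.50 to -0.22 for complex V. The values nearest to 0 came without footpad replicate 1 (complexes I, III and V), flank replicate 1 (IV) or flank replicate 3 (II), and those farthest from 0 without footpad replicate 2 (I, II and III) or flank replicate 2 (IV and V).

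**Figure D2:**
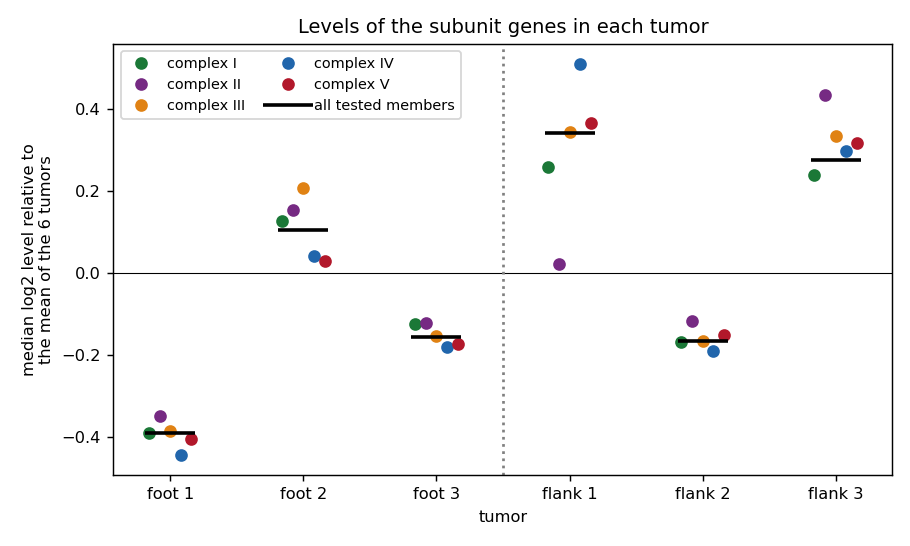
Median log2 level of the members of each complex (points) and of all 82 tested members (bars), relative to the mean of the 6 tumors (y axis), for each tumor (x axis). Footpad replicate 1 is lowest (-0.39) and flank replicates 1 and 3 are highest (0.34 and 0.27), while footpad replicate 2 (0.11) lies above flank replicate 2 (-0.17).

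Complex I oxidizes NADH. Its median log2 fold change was -0.25 over 36 subunits, of which 33 were below 0, 2 had an unadjusted p under 0.05 and 0 were called by edgeR. The 7 core subunits, which carry the flavin, the iron-sulfur clusters and the quinone site, had a median of -0.13, and the 29 accessory subunits, which surround them, had a median of -0.26. Ndufb2, an accessory subunit of the membrane arm on chr6:39592565-39599843, had the lowest value in the complex. Its levels were 27.6, 34.6 and 32.6 CPM in footpad tumors and 63.8, 37.8 and 50.9 CPM in flank skin tumors. All footpad tumors lay below all flank skin tumors, with flank replicate 2 nearest to them. The log2 fold change was -0.68 (SE 0.21), with an adjusted p of 0.0944 in edgeR and 0.0313 in DESeq2.

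Ndufs5, an accessory subunit of the same complex, was at 43.8, 56.7 and 57.8 CPM against 82.6, 58.9 and 68.0 CPM. The groups did not overlap, although footpad replicate 3 and flank replicate 2 were close, and the log2 fold change of -0.40 (SE 0.18) did not pass the test (adjusted p = 0.201, edgeR). At the other end stood Ndufs7, a core subunit that holds the iron-sulfur cluster next to the quinone site. It was at 34.9, 40.4 and 33.8 CPM in footpad and 34.1, 29.5 and 33.1 CPM in flank skin tumors, groups that overlapped, with a log2 fold change of 0.17 (SE 0.13). Ndufv1, which binds NADH and the flavin, was at 150, 229 and 178 CPM against 153, 158 and 194 CPM. Its values overlapped, with a log2 fold change of 0.14 (SE 0.19, adjusted p = 0.677, edgeR).

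Complex II, succinate dehydrogenase, joins the citric acid cycle to the chain and had the narrowest range, from -0.28 to -0.15 over its 4 subunits, with 0 called by edgeR and 0 at an unadjusted p under 0.05. Sdha, the flavoprotein that oxidizes succinate, was at 217, 273 and 247 CPM in footpad and 217, 242 and 360 CPM in flank skin tumors. Flank replicate 3 alone stood above the others, and the log2 fold change was -0.15 (SE 0.22). Sdhb, the iron-sulfur subunit, was at 381, 607 and 460 CPM against 564, 454 and 634 CPM, with a log2 fold change of -0.19 (SE 0.22). The sites overlapped for it as well. The membrane anchors Sdhc and Sdhd had log2 fold changes of -0.24 (SE 0.19) and -0.28 (SE 0.22).

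Complex III passes electrons from ubiquinol to cytochrome c. Its median was -0.24 over 9 subunits, 8 of them below 0, 1 at an unadjusted p under 0.05 and 0 called by edgeR. The 4 core and redox subunits had a median of -0.11 and the 5 accessory subunits a median of -0.35. Cyc1, cytochrome c1, was at 143, 195 and 139 CPM in footpad and 151, 148 and 218 CPM in flank skin tumors, and Uqcrfs1, the Rieske iron-sulfur protein, at 121, 180 and 137 against 148, 135 and 188 CPM. Both overlapped between sites, with log2 fold changes of -0.11 (SE 0.21) and -0.10 (SE 0.20). Uqcrc1, a core protein, gave the highest value of the complex, 0.01 (SE 0.29). Uqcrq, a small accessory subunit, gave the lowest, from 66.4, 107 and 80.0 CPM in footpad to 152, 101 and 129 CPM in flank skin tumors. Only footpad replicate 2 reached into the flank skin range, and the log2 fold change of -0.59 (SE 0.22) had an adjusted p of 0.153 in edgeR's test.

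Complex IV, which reduces oxygen, held the gene that was called. Over its 16 tested members the median log2 fold change was -0.40, 14 were below 0 and 1 was called. Cox7a1, the heart and skeletal muscle isoform of subunit VIIa, which is also known from brown fat, lies on chr7:30184171-30186030 and overlaps no other annotated gene. It was counted with 57, 102 and 44 reads in footpad tumors and 627, 175 and 359 reads in flank skin tumors, or 1.28, 1.49 and 0.898 CPM against 10.8, 2.99 and 5.74 CPM. Every flank skin tumor was above every footpad tumor, with flank replicate 1 highest and flank replicate 2 nearest to the footpad group. The level was 5.32-fold lower in footpad tumors by a log2 fold change of -2.41 (SE 0.50, adjusted p = 0.0400 in edgeR and 9.69e-06 in DESeq2).

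The call of Cox7a1 rested on all but 1 of the tumors. Its adjusted p in edgeR was 0.0687 without flank replicate 1, 0.112 without flank replicate 3, and 0.141, 0.0546 and 0.146 without footpad replicates 1, 2 and 3. It was 0.0270 without flank replicate 2. With the replicate number as a block it was 0.116. The log2 fold change stayed between -2.76 and -1.84 over all alternatives run. Calls over all genes moved as well, from 838 to 388, 553 and 46 without flank replicates 1, 2 and 3. Without footpad replicates 1, 2 and 3 they were 31, 987 and 0. Cox7a2, the general isoform of the same subunit, was at 151, 225 and 182 CPM against 257, 190 and 281 CPM, with overlap and a log2 fold change of -0.38 (SE 0.21, adjusted p = 0.292, edgeR). As a share of the summed FPKM of the pair, Cox7a1 made up 1.82%, 1.34% and 1.05% in footpad and 8.11%, 3.15% and 4.15% in flank skin tumors. The general isoform was therefore the major one in all 6 tumors. Cox7a2 overlaps Tmem30a in the annotation, and how reads in the shared stretch were assigned is not given in the sources used here.

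The other muscle isoforms were near the floor of detection and hung on a single tumor. Cox6a2 had 0, 58 and 0 reads in footpad tumors and 36, 22 and 15 reads in flank skin tumors, and Cox8b had 0, 73 and 0 against 107, 6 and 12 reads. Footpad replicate 2 thus had reads of both where the other footpad tumors had none. With all tumors the log2 fold changes were -0.49 (SE 1.41) for Cox6a2 and -0.95 (SE 1.67) for Cox8b, with adjusted p of 0.859 and 0.758 in edgeR's test. Leaving out footpad replicate 2 leaves only footpad tumors with 0 reads of both genes, so that the result is set by that choice and shows no site difference. Against the floor of 3 reads per library, Cox6a2 was then at least 6.41-fold lower in the remaining footpad tumors than the flank skin mean. Against flank replicates 2 and 3 alone it was at least 4.79-fold lower. Cox8b was in the same way at least 11.1-fold lower, and at least 2.29-fold against flank replicates 2 and 3 alone. The adjusted p in edgeR without footpad replicate 2, 0.0465 for Cox6a2 and 0.117 for Cox8b, belongs to the fold change of that fit and tests none of these bounds. The directions also turned with single tumors, to 1.29 for Cox8b without flank replicate 1 and to 0.06 for Cox6a2 without footpad replicate 1 or 3. Cox6a2 overlaps Itgad, a leukocyte integrin gene, in the annotation.

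Markers of skeletal muscle differed between tumors in another order. Summed over the 17 markers of the list, they were at 55.5, 806 and 24.4 CPM in footpad and 14.7, 92.9 and 17.8 CPM in flank skin tumors, with footpad replicate 2 highest, and 0 of 16 tested were called by edgeR (3 at an unadjusted p under 0.05), although all 16 log2 fold changes were above 0. Flank replicate 1, the tumor with the most Cox7a1, had the lowest sum, with 6 of the 17 at 0 reads. Of the list only Ckm, the muscle creatine kinase, was highest there among flank skin tumors (5.61, 4.65 and 1.41 CPM). In footpad tumors Ckm was at 0.831, 45.9 and 0.633 CPM. Adipocyte markers summed to 24.4, 18.2 and 26.3 CPM against 37.5, 48.7 and 28.4 CPM over 10 genes, most of it Fabp4, which capillaries also express. All 4 of the adipocyte markers tested had log2 fold changes below 0, with 1 at an unadjusted p under 0.05 and 0 called by edgeR. Of these Plin1 was highest in flank replicate 1, at 0, 0.175 and 0.0817 CPM in footpad and 1.88, 0.684 and 0 CPM in flank skin tumors. Adipoq, Fabp4 and Cfd were highest in flank replicate 2. Ucp1 and Cidea, markers of brown fat, had 0 reads in all flank skin tumors, and 0, 4 and 0 and 0, 18 and 0 reads in footpad tumors. The part of muscle or fat cells in the Cox7a1 counts was not tested. In bulk tumors, fewer cells of a type and less RNA per cell cannot be told apart.

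**Figure D3:**
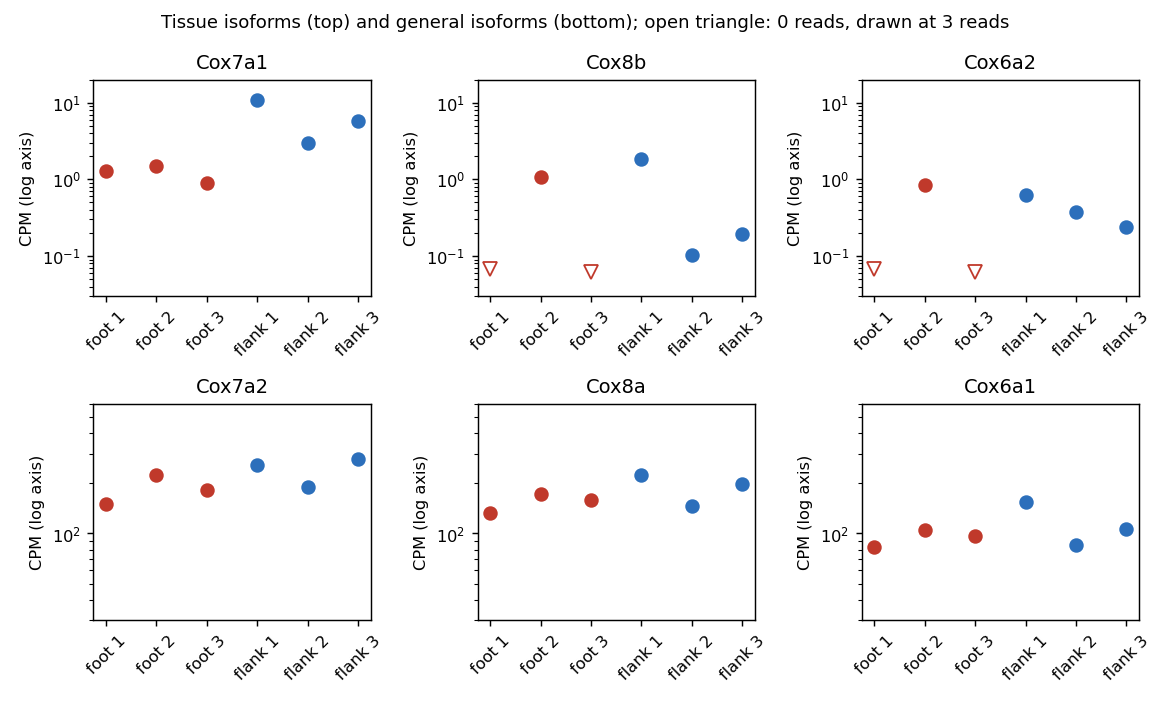
CPM on a log axis of 3 muscle isoforms of cytochrome c oxidase (top row) and their general counterparts (bottom row) in each tumor, with footpad in red, flank skin in blue and open triangles for 0 reads, drawn at the level of 3 reads. Cox7a1 is between 0.898 and 1.49 CPM in footpad and between 2.99 and 10.8 CPM in flank skin tumors, whereas Cox7a2, Cox8a and Cox6a1 overlap between sites.

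Among the remaining isoform pairs, Cox4i2, the lung isoform of subunit IV, had the highest value of the complex. Its counts were low, with 31, 48 and 15 reads in footpad and 24, 8 and 25 reads in flank skin tumors, and it overlaps Bcl2l1 and Gm32057 in the annotation. It was at 0.696, 0.700 and 0.306 CPM in footpad and 0.414, 0.137 and 0.399 CPM in flank skin tumors, with overlap, and its log2 fold change of 0.84 (SE 0.59) did not pass the test (adjusted p = 0.413, edgeR). The general isoform Cox4i1 was at 309, 455 and 370 CPM against 536, 375 and 538 CPM, with a log2 fold change of -0.35 (SE 0.21), and Cox4i2 made up 0.0315% to 0.224% of the FPKM of the pair. Cox6a1 had a log2 fold change of -0.28 (SE 0.22), Cox6b1 of -0.41 (SE 0.21), Cox7b of -0.44 (SE 0.23) and Cox8a of -0.30 (SE 0.19). The testis isoforms Cox7b2 and Cox8c had 0 reads in all 6 tumors, at most 0.0673 CPM by the floor of 3 reads, and Cox6b2 had 6, 0 and 0 reads in footpad and 11, 2 and 0 in flank skin tumors. Germ cell markers summed to 0.376 CPM at most. Cox5a, a general subunit on the matrix side, was at 97.4, 129 and 100.3 CPM against 98.5, 87.8 and 135 CPM, and overlapped, with a log2 fold change of 0.02 (SE 0.20).

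Complex V had log2 fold changes below 0 in all 17 subunits, with a median of -0.35. Of these, 2 had an unadjusted p under 0.05 and 0 were called by edgeR. The soluble F1 head, which makes ATP, had a median of -0.25 over 5 subunits, the peripheral stalk -0.37 over 4, the c-ring -0.28 over 3 and the membrane subunits -0.46 over 5. Atp5b, the catalytic beta subunit, was the most abundant member per length, at 1144 FPKM on average (SD 225, n = 6). Its levels were 1904, 2508 and 2205 CPM in footpad and 2538, 2127 and 3190 CPM in flank skin tumors, which overlapped, with a log2 fold change of -0.25 (SE 0.22). Atp5a1, the alpha subunit, had the value nearest to 0, -0.04 (SE 0.27).

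The 3 c-ring genes encode the same mature protein behind different import signals. Atp5g2 was at 78.1, 119 and 110 CPM in footpad and 176, 117 and 158 CPM in flank skin tumors, which overlapped in flank replicate 2 and footpad replicate 2, and it had the lowest value of the complex, -0.55 (SE 0.22, adjusted p = 0.165, edgeR). Atp5g1 and Atp5g3 had log2 fold changes of -0.11 (SE 0.21) and -0.28 (SE 0.19). By FPKM, Atp5g3 made up 51.2% ± 1.26 of the ring's transcripts in footpad and 50.6% ± 1.66 in flank skin tumors (SD, n = 3). Atp5g2 made up 21.3% ± 1.52 in footpad and 25.5% ± 2.85 in flank skin tumors (SD, n = 3), with no overlap of the sites. For Atp5g1 the order was the reverse, 27.5% ± 0.289 in footpad and 24.0% ± 2.23 in flank skin tumors (SD, n = 3), again with no overlap. These shares sum to the whole ring and were not tested. Atp5if1, which blocks the enzyme when it runs backward, is listed as Atpif1 and so was no member. It was at 72.4, 78.3 and 86.1 CPM against 126, 71.2 and 97.0 CPM, with a log2 fold change of -0.31 (SE 0.21, adjusted p = 0.391, edgeR).

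The ranking of the subunits by FPKM was compared between tumors. Because levels range from 0 to over 1000 FPKM, this measure says little about single subunits. Spearman's coefficient across member genes, which share libraries and are not independent, was 0.953 to 0.991 over the 15 pairs of tumors. It was 0.962 to 0.991 in the 6 pairs of the same site and 0.953 to 0.989 in the 9 pairs of different sites. Within complexes, the mean FPKM without tissue isoforms ranged from 18.3 (Ndufa11) to 259 (Ndufb9) in complex I, from 81.1 (Sdha) to 428 (Sdhb) in complex II and from 61.9 (Uqcrq) to 402 (Uqcr10) in complex III. In complex IV the range was 97.1 (Cox7a2l) to 553 (Ndufa4), and in complex V it was 94.2 (Atp5j) to 1144 (Atp5b). The median subunit was at 87.2 FPKM in complex I and at 284 FPKM in complex IV.

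Transcript length was examined after the values had been seen. Across the 78 members without tissue isoforms, whose transcripts are 315 to 3479 bases long, Spearman's coefficient of length and log2 fold change was 0.23, a description across genes that share the 6 libraries. The median log2 fold change was -0.33 for the 11 members under 500 bases, -0.31 for 38 of 500 to 1000 bases, -0.26 for 13 of 1000 to 1500 bases and -0.19 for 16 that were longer. Other genes in the same range of expression had medians of -0.34 (41 genes), -0.26 (293), -0.21 (434) and -0.05 (5338) in the same order, and 80.5%, 85.0%, 78.8% and 55.2% of them were below 0, against 100%, 94.7%, 100% and 81.3% of members. Below 1500 bases the medians of members and of other genes were thus close, and above it the members' was the lower. Classes of subunits differ in length too. In complex III, core and redox transcripts have 1363 to 1896 bases, and accessory ones 445 to 547 apart from Uqcrq (1521). The part of length in the site difference, or in the medians of the subunit classes, was not tested.

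**Figure D4:**
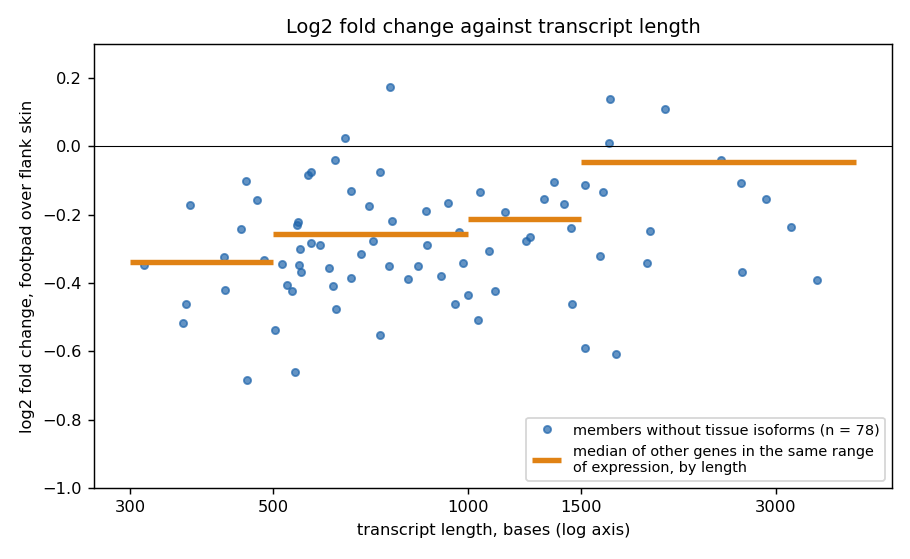
Log2 fold change of footpad over flank skin tumors (y axis) against transcript length on a log axis (x axis) for 78 members without tissue isoforms, with orange lines at the medians of other genes in the same range of expression. The lines rise from -0.34 under 500 bases to -0.05 at 1500 bases and more, and most members lie below 0 at every length.

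The 13 mitochondrially encoded subunits had log2 fold changes above 0, with a median of 1.90. Of these, 6 had an unadjusted p under 0.05, 0 were called by edgeR and 2 by DESeq2 (12.3% of all genes in either direction). Summed, they were at 60900, 6098 and 30222 CPM in footpad and 15065, 7297 and 5384 CPM in flank skin tumors. Footpad replicate 1 was highest here and lowest for the nuclear subunits, and footpad replicate 2 fell among the flank skin tumors.

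**Figure D5:**
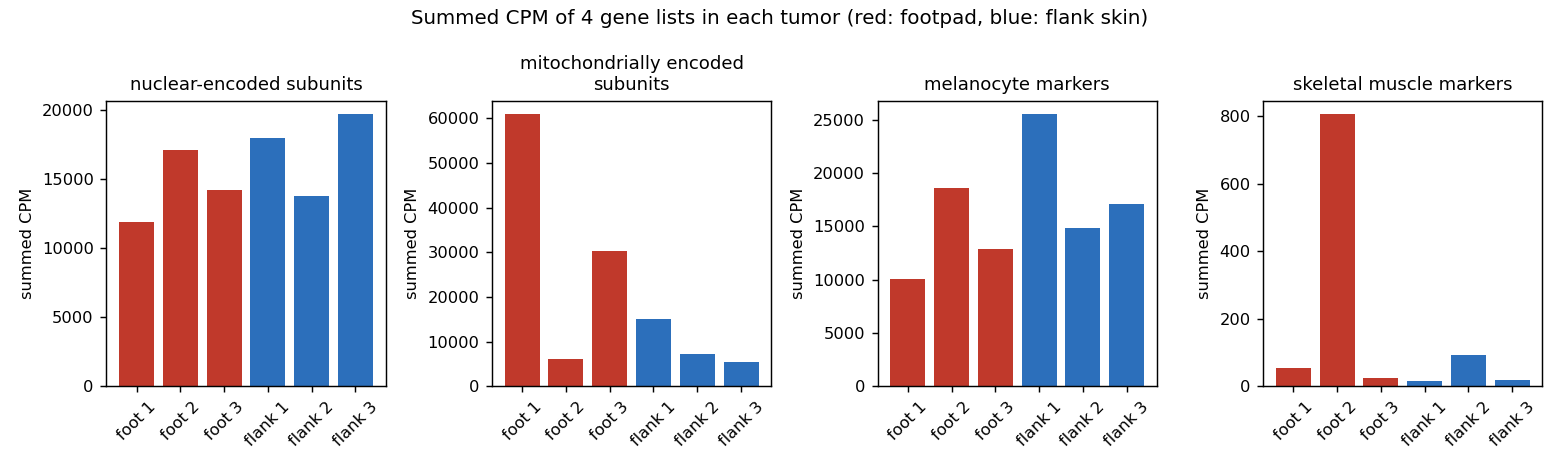
Summed CPM in each tumor (red, footpad; blue, flank skin) of the nuclear-encoded subunits, the 13 mitochondrially encoded subunits, melanocyte markers and skeletal muscle markers, each on its own axis from 0. Footpad replicate 1 has the least nuclear (11940) and the most mitochondrial (60900) subunit RNA, and footpad replicate 2 the most muscle marker RNA (806).

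Other genes of the pathway also stood mostly below 0. Of 47 tested assembly factors, which build the complexes, 35 were below 0, 6 had an unadjusted p under 0.05 and 0 were called by edgeR, with a median of -0.15. Coa3, an assembly factor of complex IV, had the lowest value, -0.62 (SE 0.17, adjusted p = 0.0767, edgeR). Of 17 enzymes of the citric acid cycle and pyruvate dehydrogenase, 12 were below 0, 1 had an unadjusted p under 0.05 and 0 were called by edgeR, with a median of -0.08. Among 16 electron carriers and ubiquinone synthesis genes 4 had an unadjusted p under 0.05 and 0 were called by edgeR, with a median of -0.14, and Cycs, which encodes cytochrome c, had a log2 fold change of -0.33 (SE 0.21).

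Transcription factors and coactivators of respiratory genes gave 0 called by edgeR of 12 tested and 3 at an unadjusted p under 0.05, with a median of -0.29. Gabpa, the DNA-binding subunit of GABP, was at 69.3, 72.5 and 67.6 CPM in footpad and 89.2, 99.5 and 114 CPM in flank skin tumors. The sites did not overlap, and the log2 fold change of -0.53 (SE 0.13) fell short of the threshold (adjusted p = 0.0634, edgeR). Nrf1, nuclear respiratory factor 1, was at 37.2, 49.4 and 39.6 CPM against 57.2, 55.0 and 63.2 CPM, again with no overlap, and a log2 fold change of -0.48 (SE 0.15, adjusted p = 0.103, edgeR). In all, 5 of the 12 regulators were lower in every footpad tumor (background 14.9%) and 1 was higher in every one (17.5%). Gabpa and the member Atp5j, subunit F6 of ATP synthase, overlap in the annotation. For comparison, 1 of 17 glycolysis genes was called lower (background 1.44%), Aldoc, an aldolase isoform, at -1.93 (SE 0.25, adjusted p = 0.0141, edgeR). Of the 17, 16 were below 0, with a median of -0.24.

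Markers of the graft and of host cells also differed between tumors. Melanocyte markers summed to 10067, 18637 and 12927 CPM in footpad and 25513, 14814 and 17069 CPM in flank skin tumors over 8 genes. Most of the sum was Tyrp1, Dct and Pmel, which like Tyr were highest in flank replicate 1. Mitf and Slc45a2 were highest in footpad replicate 2 and Mlana in flank replicate 3. All but Sox10 were lowest in footpad replicate 1. Sox10 was highest there (191 CPM) and lowest in flank replicate 1 (151 CPM). Of these markers 7 of 8 were below 0, 1 had an unadjusted p under 0.05 and 0 were called by edgeR. Fibroblast markers summed to 2768, 2810 and 3786 CPM against 119, 443 and 155 CPM, with 7 of 10 called higher in footpad tumors (background 3.43%). Endothelial markers gave 3 of 8 called higher, with sums of 308 to 340 CPM against 166 to 209 CPM. Macrophage markers gave 1 of 10, with sums of at least 142 CPM in footpad and at most 118.6 CPM in flank skin tumors. Of 8 neutrophil, 11 keratinocyte and 5 erythroid genes tested, 8, 8 and 0 had an unadjusted p under 0.05 and 0 in each list were called by edgeR, with summed levels of 8.33 to 394, 12.3 to 1410 and 3952 to 36260 CPM in footpad and of 4.89 to 31.7, 3.38 to 18.0 and 1925 to 30913 CPM in flank skin tumors. The part of these cells in the subunit levels was not tested.

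Some subunit counts are uncertain. In the annotation, 26 of the 85 members overlap another gene, and the strand setting of the counting is not given in the sources used here. Pseudogenes or copies named after Ndufab1, Ndufs5, Ndufb4, Atp5l and Atp5pb are listed in the table, and how reads matching several of them were assigned is not given in the sources used here.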

How the data were processed

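RNA of 3 footpad and 3 flank skin tumors was sequenced, 1 library each, and sites were taken from the sample labels. Per the labels and the methods, the authors made stranded total RNA libraries, trimmed with Trimmomatic, aligned with HISAT2 2.1.0 to mm10, and checked quality with FastQC 0.11.7. The deposited values are unnormalized read counts per gene, and FPKM values, for which the authors adjusted length and depth. The program that counted is not given in the sources used here. Members and gene lists were chosen with earlier results of these data known.

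Counts of 17210 genes that passed filterByExpr were tested in R 4.3.3 with edgeR 4.0.16 (TMM, glmQLFit, glmQLFTest) and Benjamini-Hochberg adjustment. The SE was approximated as the log2 fold change divided by the square root of F. Per-tumor levels used log2(CPM + 0.5). Floors cover counting error only, whereas SEs and p-values include the spread between tumors, with a common coefficient of biological variation of 0.338. Named members are those called, the highest and lowest of each complex, the isoform and c-ring genes, and the redox and catalytic subunits, of which 1 is not reported here. The others, such as Ndufs5 and genes of the lists, were named after their values were seen. Alternatives were DESeq2 1.42.0, limma 3.58.1 on log2(FPKM + 1) and log2(FPKM + 0.1), other filters and scalings, the replicate block, leaving out each tumor, and a shorter promoter window of 150 bases. Fits were tested on simulated data. Transcript lengths came from GENCODE, promoters and coordinates from RefSeq. The tables were processed in Python 3.11.15.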

Additional observations from a re-analysis of the deposited data

How the results depend on the processing

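The direction of the median log2 fold change of all members and of each complex was the same under all 15 alternatives. The number of members below 0, which was counted under the alternatives after the data were seen, ran from 67 to 80. Members called lower numbered 2 with DESeq2 (Cox7a1 and Ndufb2), 0 with the replicate block and 0 to 1 when single tumors were left out. Members called with a fold of 2 or more numbered 0 with the replicate block and 0 to 1 without single tumors. The called member was Cox7a1 without flank replicate 2. Without footpad replicate 2 it was Cox6a2 and not Cox7a1, and the remaining footpad tumors then had 0 reads of Cox6a2. Among all tested genes, 838 calls became 2463 with DESeq2, 0 with the replicate block and 0 to 987 without single tumors. At 0 calls, 3551 genes had an unadjusted p under 0.05 with the block and 3289 without footpad replicate 3. The replicate numbers were not taken to pair the tumors, since no label ties a number to a mouse. Deviations of same-numbered tumors from their site means correlated at 0.054, -0.097 and -0.115 across genes. Those of differently numbered tumors correlated at -0.199 to 0.264. The deviations within a site cancel out, so that these correlations cannot decide on a pairing. Shared hosts were not tested.

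Of the genes listed, DESeq2 called 1 of 48 assembly factors, 2 of 13 mitochondrially encoded subunits, 1 of 12 regulators and 2 of 16 electron carriers. It also called 2 of 17 glycolysis genes, and 1 of 17 muscle, 2 of 12 keratinocyte, 3 of 10 macrophage, 2 of 8 neutrophil and 6 of 8 endothelial markers. Over all genes the share was 12.3% in either direction. Without single tumors the calls ranged from 0 to 5 of 13 mitochondrially encoded subunits, 0 to 1 of 16 electron carriers and 0 to 1 of 17 glycolysis genes. For markers they were 0 to 9 of 10 fibroblast, 0 to 3 of 10 macrophage, 0 to 6 of 8 neutrophil, 0 to 5 of 8 endothelial and 0 to 1 of 8 melanocyte genes. In the same fits 0 to 987 of all tested genes were called, with the 987 out of 17639 without footpad replicate 2. The causes were not tested. With 150 bases before the start alone, the ETS letters stood in 13.0% of member promoters (5.69% of all and 10.4% of tested) and the YY1 letters in 0% (2.56% of all), and NRF1 letters in 8.70% (1.90% of all). Testis isoforms were at or near the limit of depth in every tumor.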
